A study of Mus musculus with 74 samples.

Results

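The genes described here encode the enzymes that turn farnesyl diphosphate into squalene and squalene into cholesterol: Fdft1, Sqle, Lss, Cyp51, Msmo1, Nsdhl, Hsd17b7, Sc5d and Dhcr7. They were listed by name, as 9 of the 53379 genes counted, with earlier results of these data known. All 9 passed the filters on low counts in both experiments, so no member was left out of any comparison.

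The study asked how dorsal root ganglion (DRG) neurons respond to a sciatic nerve injury (SNI, a crush), after which peripheral axons regrow, and to a spinal cord injury (SCI, a dorsal hemisection at T9/10), after which central axons do not. Whole L4 DRG were taken from C57BL/6 wild type females of 10 to 12 weeks, 4 uninjured mice and 4 mice 1 day after SCI, with 1 library per mouse from RNA depleted of ribosomal RNA. YFP-positive cells were sorted by FACS from L4 DRG of Thy1YFP16 females of 10 to 20 weeks, in which the Thy1 promoter drives YFP in a subset of neurons, named in the labels as dorsal column sensory neurons. The sorted cells came from 6 naive mice and from 4 mice per injury at each of 1 day (1d) and 3 days (3d), and each mouse gave 3 wells of 100 cells, sequenced as technical replicates. The genotype tags of the sorted samples carry a number that counts up from sample to sample, and the strain tag, Thy1YFP16 throughout, was used here. The sorted mice fall into a set titled FACS and a set titled FACS2018, each holding all 5 groups.

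Cholesterol synthesis runs in the endoplasmic reticulum from acetyl-CoA through mevalonate and farnesyl diphosphate, from which other branches make ubiquinone, dolichol and the lipids that anchor proteins in membranes. Squalene formation is the first step that commits carbon to sterols. The transcription factor SREBP-2, held back by Insig proteins when membrane sterol is high, raises transcription of most genes of the pathway. Neurons and glia both carry these enzymes, and glia supply neurons with part of their cholesterol.

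Each whole DRG library held 21959030 to 44493319 reads counted on genes, and each sorted mouse 30518187 to 83599972. Values of mice are given as CPM, read counts scaled to the TMM library size. For the sorted cells, sums over the 3 wells of a mouse were used. Values of single wells are CPM of the well's reads on genes, without TMM scaling, so they are not on the scale of the mouse values. The labels make each replicate a mouse, so the tests measure spread between mice. Of the 66 wells, 20 held more reads on a list of glial genes than on a list of neuronal genes, and these are called glia-rich, although the sort gate took YFP-positive cells. They came from 14 of the 22 mice, 6 wells in naive mice, 3 each at SNI 1d and SCI 1d, and 4 each at SNI 3d and SCI 3d. Their glial share was 3.31 to 14.4% of reads and their neuronal share 0.00747 to 1.69%, against 0.178 to 1.29% and 1.06 to 3.86% in the other 46 wells. All 3 wells of SNI 3d replicate 3 and of SCI 3d replicate 3 were glia-rich. Those of SNI 3d replicate 3 held 1.69, 1.46 and 0.0116% of reads on neuronal genes, the first 2 within the range of the other 46 wells, and those of SCI 3d replicate 3 held 1.04, 0.00747 and 0.0269%. The class was set from glial and neuronal reads only, and some glia-rich wells held reads of other cells. On a fibroblast list the wells of SCI 3d replicate 3 held 4.34, 5.79 and 2.94% of reads, against 4.18, 3.31 and 4.77% on glial genes. The last of them also held 1.33% on macrophage genes. The glia-rich wells of naive replicate 5 held 1.37 and 1.78% on fibroblast genes. The main fitted differences of sorted cells are given with and without glia-rich wells.

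Sequence upstream of the start sites was looked at because the members moved in the same direction in whole DRG. RefSeq promoter windows (GRCm38.p6) were found for 7 of the 9 members, with Fdft1 and Sqle unmatched, and the 250 bases before each start were searched on both strands. Stretches are printed for Hsd17b7 and Sc5d, members called in whole DRG that have an entry. Only the part outside the gene as GENCODE vM21 places it is shown. The stretches run in transcript direction, with CCAAT or its reverse complement ATTGG, the box bound by NF-Y, in capitals. The Hsd17b7 stretch lies at chr1:169969242-169969455 on the minus strand and the Sc5d stretch at chr9:42264301-42264550 on the minus strand.
Hsd17b7: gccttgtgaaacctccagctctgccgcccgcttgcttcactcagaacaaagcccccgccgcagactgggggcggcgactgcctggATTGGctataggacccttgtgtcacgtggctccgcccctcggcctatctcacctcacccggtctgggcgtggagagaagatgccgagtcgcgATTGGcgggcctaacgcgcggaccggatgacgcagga
Sc5d: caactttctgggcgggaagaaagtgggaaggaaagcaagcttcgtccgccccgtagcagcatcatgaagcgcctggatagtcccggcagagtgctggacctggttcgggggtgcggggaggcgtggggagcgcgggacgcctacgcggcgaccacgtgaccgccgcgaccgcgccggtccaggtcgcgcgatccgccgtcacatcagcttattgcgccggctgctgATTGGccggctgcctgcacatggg
Dhcr7 had 3 windows and the other matched members 1 each, and a gene was counted if any of its windows held the motif. CCAAT was found for 7 of 7 members, and for 37.5% of all 27025 genes with RefSeq windows. GGGCGG, the GC box, was also found for 7 of 7, against 35.4% of all genes. TCACNCCA, one form of the sterol regulatory element, was found for Msmo1 among the members, against 4.20% of all genes. CACGTG, an E box, was found for Hsd17b7, Sc5d and Dhcr7, against 6.86%. For Dhcr7, both CCAAT and the E box came only from windows that lie inside the annotated gene. The CCAAT matches of Cyp51 and Msmo1 and the sterol regulatory element of Msmo1 also lay inside the annotated gene. Outside it, CCAAT was found for Lss, Nsdhl, Hsd17b7 and Sc5d. The shares of all genes were taken over whole windows. These are matches of letters and not measured binding.

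In whole DRG 1 day after SCI, the post-squalene genes lay lower than in uninjured DRG, with fitted changes of 6 to 24%, and 3 of 9 passed the test. Sqle, Hsd17b7 and Sc5d fell at an adjusted p under 0.1 in edgeR's quasi-likelihood test, Benjamini-Hochberg adjusted over 17616 genes, while 0.937% of all genes tested fell by that rule. The fitted log2 fold change was below 0 for 9 of 9 members, with a median of -0.34, and for 8254 of the 17616 genes, with a median of 0.01. In 3 of 9 members the highest SCI mouse was lower than the lowest uninjured mouse, which held for 6.07% of all genes.

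**Figure D1:**
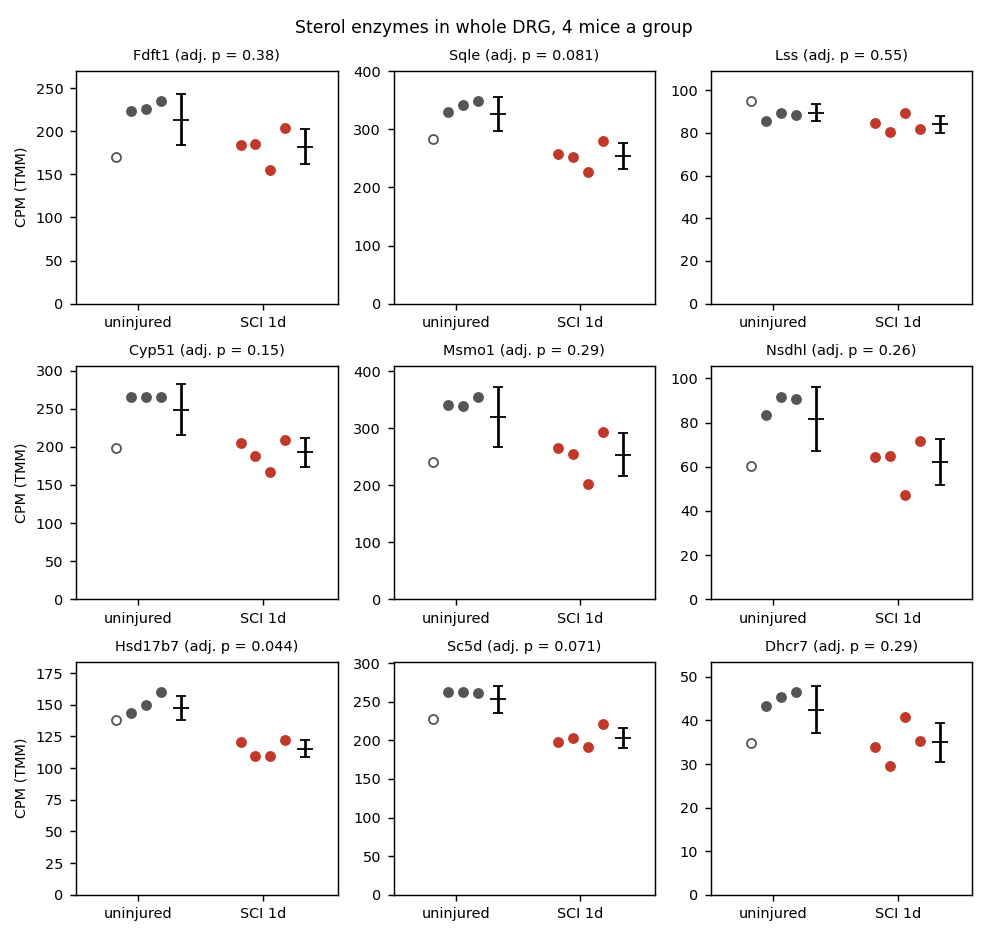
CPM of each of the 9 members in whole DRG, 1 panel per gene with the axis from 0. Points are mice (grey uninjured, red SCI 1d, n = 4 each, the open grey circle being uninjured replicate 1), bars are the mean ± SD, and the panel title gives the adjusted p. For Sqle, Hsd17b7 and Sc5d the red points all lie below the grey ones, and for Fdft1, Cyp51, Msmo1, Nsdhl and Dhcr7 uninjured replicate 1 lies among the red points.

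Fdft1 (chromosome 14, 63145150 to 63179578) encodes squalene synthase, which joins a pair of farnesyl diphosphate molecules head to head. Its levels were 169.9, 224.0, 225.3 and 235.0 CPM in uninjured replicates 1 to 4 and 183.9, 185.8, 154.8 and 203.4 CPM in SCI replicates 1 to 4. Uninjured replicate 1 lay among the SCI mice and the other uninjured mice lay above them. The difference was not called (log2 fold change -0.23, SE 0.11, edgeR adjusted p = 0.379).

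Sqle (chromosome 15, 59315077 to 59331192) encodes squalene epoxidase, a rate-limiting oxygen-dependent step. Uninjured mice measured 283.7, 329.0, 342.3 and 348.7 CPM and SCI mice 256.8, 252.0, 227.2 and 280.2 CPM, with no overlap of the groups. Sqle fell by 22.1% (log2 fold change -0.36, SE 0.09, edgeR adjusted p = 0.0811).

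Lss (chromosome 10, 76531588 to 76557138) encodes lanosterol synthase, which folds oxidosqualene into the sterol ring system. It had the smallest fitted difference of the 9, 94.9, 85.6, 89.4 and 88.1 CPM in uninjured mice against 84.6, 80.6, 89.2 and 81.6 CPM after SCI. The groups overlapped and the difference was not called (log2 fold change -0.09, SE 0.06, edgeR adjusted p = 0.549).

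Cyp51 (chromosome 5, 4081145 to 4104746) encodes the cytochrome P450 that removes the first methyl group from lanosterol. It measured 198.6, 265.1, 265.2 and 265.9 CPM in uninjured mice and 205.0, 188.2, 167.4 and 209.4 CPM after SCI. Uninjured replicates 2 to 4 lay close together above all SCI mice, and uninjured replicate 1 lay among the SCI mice. The log2 fold change was -0.37 (SE 0.11, edgeR adjusted p = 0.149).

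Msmo1, Nsdhl and Hsd17b7 encode the oxidase, the decarboxylating dehydrogenase and the ketoreductase that work in turn to remove the remaining pair of methyl groups. Msmo1 (chromosome 8, 64718139 to 64733792) measured 240.8, 341.6, 340.0 and 355.8 CPM in uninjured mice and 264.8, 254.1, 202.1 and 292.7 CPM after SCI. Nsdhl (chromosome X, 72918557 to 72958514) measured 60.4, 83.5, 91.8 and 90.9 CPM against 64.5, 64.8, 47.2 and 71.5 CPM. In both, the lowest uninjured mouse was replicate 1 and the lowest SCI mouse replicate 3, and the groups overlapped through uninjured replicate 1. Neither difference was called, at a log2 fold change of -0.34 (SE 0.14, edgeR adjusted p = 0.294) for Msmo1 and -0.40 (SE 0.15, edgeR adjusted p = 0.256) for Nsdhl.

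Hsd17b7 (chromosome 1, 169949535 to 169969241) had the smallest p of the members. It measured 137.7, 143.5, 149.7 and 159.9 CPM in uninjured mice (mean 148 ± 9.51 SD, n = 4) and 120.2, 109.7, 109.2 and 122.5 CPM after SCI (115 ± 6.96, n = 4). The lowest uninjured mouse stood above the highest SCI mouse. Hsd17b7 fell by 21.9% (log2 fold change -0.36, SE 0.07, edgeR adjusted p = 0.0435).

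Sc5d (chromosome 9, 42251595 to 42264256) and Dhcr7 (chromosome 7, 143823145 to 143848410) encode the desaturase and the reductase that set the double bonds of the sterol ring near the end of the pathway. Sc5d measured 227.2, 261.9, 262.4 and 261.6 CPM in uninjured mice and 197.2, 202.3, 190.8 and 221.4 CPM after SCI, again without overlap. It fell by 19.9% (log2 fold change -0.32, SE 0.07, edgeR adjusted p = 0.0706). Dhcr7 measured 34.8, 43.3, 45.4 and 46.5 CPM against 34.0, 29.6, 40.7 and 35.4 CPM, with overlapping groups (log2 fold change -0.28, SE 0.12, edgeR adjusted p = 0.288).

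Summed over the 9 genes, uninjured mice held 1448, 1778, 1812 and 1853 CPM and SCI mice 1411, 1367, 1229 and 1518 CPM. Uninjured replicate 1, the shallowest library, was the lowest uninjured mouse for 8 of 9 members, Lss being the exception. Without it, edgeR called 6 of 9 members lower, adding Cyp51 (adjusted p = 0.0305), Nsdhl (0.0880) and Msmo1 (0.0921) to Sqle, Hsd17b7 and Sc5d. Leaving out uninjured replicate 2, 3 or 4 or SCI replicate 1 or 2 left 0 members called. Without SCI replicate 3, 2 were called, and without SCI replicate 4, 3 were called. Every fitted change stayed below 0. Calls over all genes in these fits are not given beside these counts, so the counts cannot be read as particular to the members.

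Some markers of other cell types moved with the SCI group. On a list of red blood cell genes, 4 of 5 were called higher after SCI, and the list took 0.00133 to 0.00208% of reads in uninjured mice and 0.00206 to 0.00900% after SCI. On a macrophage list, the share was 0.00557 to 0.00767% against 0.00821 to 0.00928%, with 1 of 7 genes called (Cx3cr1, lower). Neuronal genes took 1.77 to 1.95% against 1.76 to 1.85%, with 0 of 9 called, and glial genes 0.736 to 0.786% against 0.641 to 0.796%, with 1 of 12 called (Glul, higher). On a fibroblast list the share was 0.0403 to 0.0685% against 0.0384 to 0.0688%, with 1 of 4 genes called (Lum, lower). On an endothelial list it was 0.00417 to 0.00585% against 0.00433 to 0.00668%, with 0 of 3 called. No marker of these lists was at 0 in any whole DRG library. With the red blood cell level in the model 0 of 9 members were called, at log2 fold changes of -0.18 for Sqle, -0.21 for Hsd17b7 and -0.19 for Sc5d, and with the glial level 1 (Hsd17b7). The part of these cells in the result was not tested further, and in bulk tissue fewer cells of a type and less RNA per cell cannot be told apart.

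The rest of the pathway, in lists written down with the members, moved as follows in whole DRG. Of 7 genes of the mevalonate arm, 3 fell and 7 of 7 had a fitted change below 0, with a median of -0.44. Hmgcs1, the synthase that makes HMG-CoA, measured 907 ± 63.4 CPM in uninjured and 645 ± 64.8 CPM in SCI mice (SD, n = 4, log2 fold change -0.49, edgeR adjusted p = 0.0283). Mvk (-0.41, edgeR adjusted p = 0.0399) and Mvd (-0.53, edgeR adjusted p = 0.0834), the kinase and the decarboxylase of mevalonate, were the others, and the Mvd groups overlapped.

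Of 9 genes of sterol sensing and uptake, 1 fell, with a median of -0.20 over the list. This was Stard4, a sterol carrier, which measured 120.4 ± 6.90 CPM in uninjured and 86.4 ± 9.71 CPM in SCI mice (SD, n = 4, log2 fold change -0.48, edgeR adjusted p = 0.0350). None of 4 other genes of the post-squalene steps was called, with a median of -0.23. None of 6 genes on the other branches from farnesyl diphosphate was called, with a median of -0.03.

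**Figure D2:**
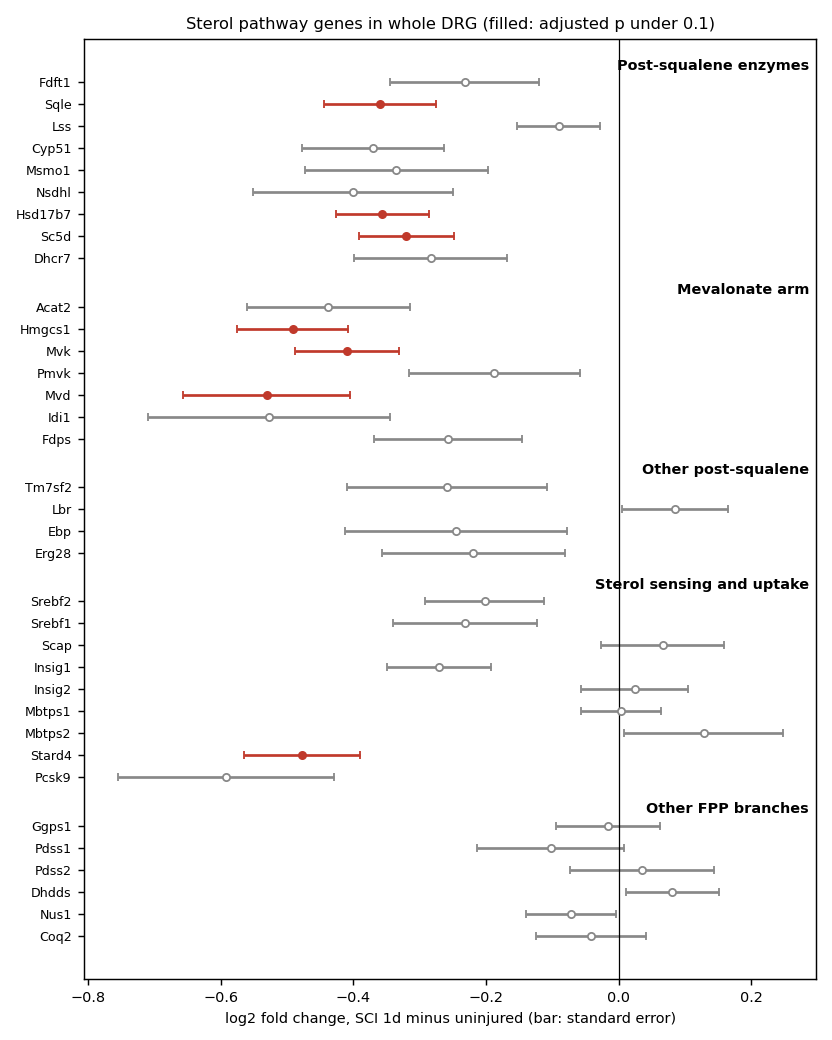
Fitted log2 fold change (SCI 1d minus uninjured whole DRG, bars ± SE) of the 9 members and of 4 lists of other genes around the pathway, filled red at an adjusted p under 0.1. The 9 members and the 7 mevalonate genes lie left of 0, and the 6 genes of the other branches lie around it with a median of -0.03.

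Levels per length are given as RPKM, CPM per kilobase of exon, here taken from reads on genes without TMM scaling. RPKM is therefore not on the scale of the mouse CPM values. By this measure the members of uninjured whole DRG fell into 3 tiers. Sqle (58.4 ± 5.94 RPKM, SD, n = 4), Cyp51 (56.0 ± 8.17), Msmo1 (51.7 ± 9.10), Sc5d (51.7 ± 4.22) and Fdft1 (50.2 ± 7.47) overlapped each other in range. Hsd17b7 (28.8 ± 2.07) and Nsdhl (28.5 ± 5.41) overlapped each other and lay below the first 5. Lss (8.24 ± 0.280) and Dhcr7 (7.27 ± 0.991) overlapped each other at the bottom. In naive sorted cells (n = 6) the order of mean RPKM was Msmo1 (117 ± 77.7), Fdft1 (102 ± 34.9), Nsdhl (73.0 ± 24.7), Sc5d (61.3 ± 20.7), Sqle (28.4 ± 14.3), Cyp51 (27.4 ± 5.52), Hsd17b7 (25.2 ± 11.5), Dhcr7 (11.3 ± 9.22) and Lss (0.911 ± 0.664). Each neighbour in that order overlapped the next in range except that Lss, at 0.148 to 1.71 RPKM, lay apart from Dhcr7, at 2.52 to 27.0 RPKM. Without glia-rich wells the first 3 in naive mice were Fdft1 (137 ± 83.3), Nsdhl (91.4 ± 39.8) and Msmo1 (91.4 ± 40.1), and Hsd17b7 (27.4 ± 9.99) stood before Cyp51 (24.0 ± 3.86). The kits differ between the 2 experiments, so their levels were not tested against each other.

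Of the members, 3 share exon bases with a gene on the other strand: Fdft1 with Ctsb, Cyp51 with Akap9 and Lss with 4930483K19Rik. In whole DRG these partners held up to 68971, 5415 and 19 reads. Whether the counting used strand is not given in the sources used here, and without strand the reads of shared bases cannot be assigned, so the levels of these 3 genes are less certain than the rest.

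In the sorted cells, Hsd17b7 at SNI 3d was the 1 call among the members, and it rose. Naive mice measured 66.2 CPM at the lowest, 128 at the median and 248 at the highest (n = 6), and the SNI 3d mice measured 562, 286, 369 and 786 CPM, each above every naive mouse. Hsd17b7 rose 3.98-fold (log2 fold change 1.99, SE 0.47, adjusted p = 0.0858 by edgeR's quasi-likelihood test with 2 RUVr factors over 23507 genes). This 1 of 9 members called stood against 0.706% of all genes called in that comparison. In 2 of 9 members, Hsd17b7 and Lss, every SNI 3d mouse lay above every naive mouse, against 0.961% of all genes. Within the set FACS the log2 ratio of mean Hsd17b7 CPM was 1.73 (2 against 4 mice) and within FACS2018 it was 1.87 (2 against 2).

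**Figure D3:**
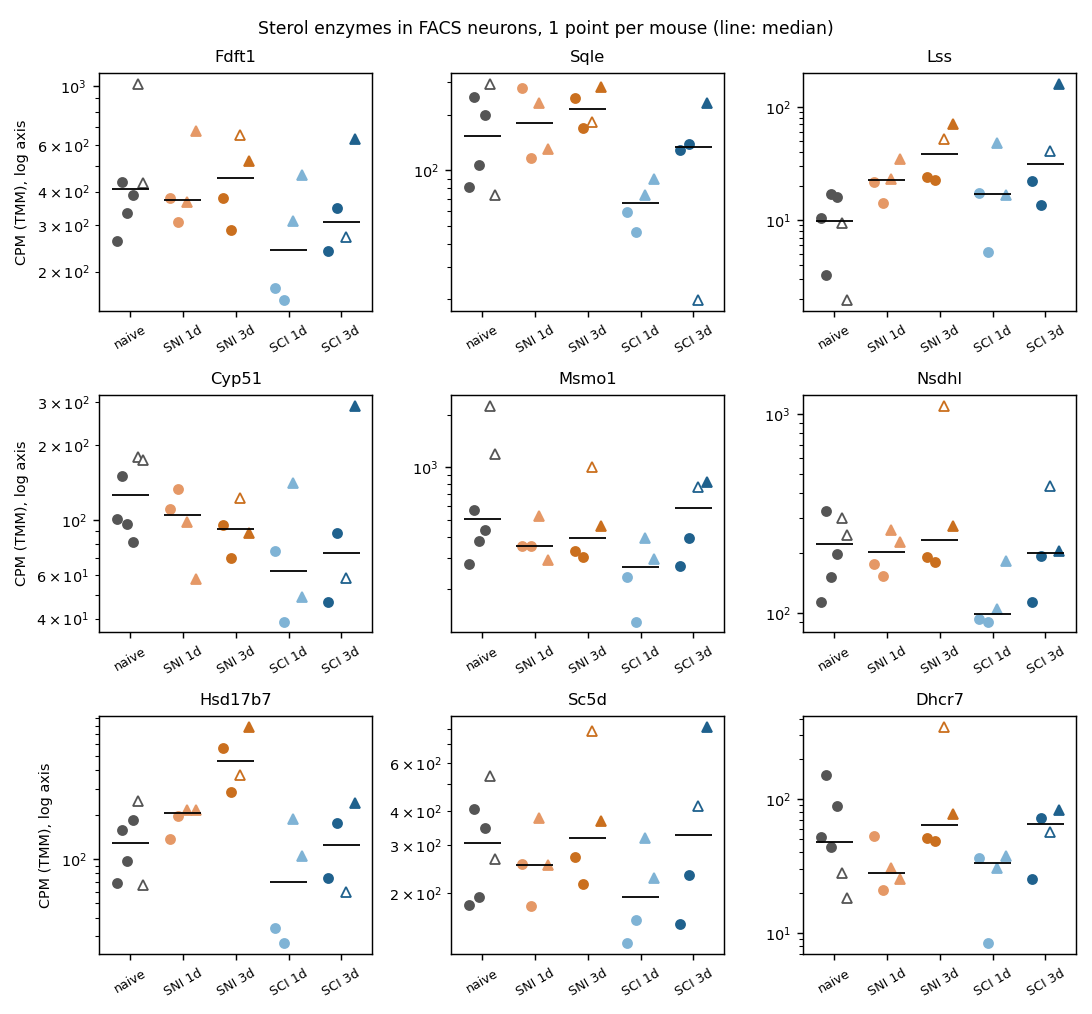
CPM (log axis) of the 9 members in sorted cells by group, 1 point per mouse, circles for the set FACS and triangles for FACS2018, open where 2 or 3 of the mouse's wells were glia-rich, with a line at the group median. All 4 SNI 3d mice lie above all 6 naive mice in the Hsd17b7 panel, 3 of 4 SCI 1d mice lie below all naive mice in the Sqle panel, and Lss runs from 1.98 to 159 CPM.

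The call on Hsd17b7 depended on how the fit was made. Without the glia-rich wells, which removes SNI 3d replicate 3 altogether, its log2 fold change was 2.05 (edgeR adjusted p = 0.0144). That fit called 1442 genes higher and 270 lower of 22620, with a median log2 fold change of 0.39 over all genes against -0.01 with all wells. With no factor the adjusted p was 0.369, with 1 factor 0.296, with the set in place of the factors 0.387 and with the glial share in their place 0.358. DESeq2 with the same 2 factors gave an adjusted p of 0.00551. Leaving out 1 mouse at a time moved the log2 fold change between 1.73 and 2.19 and the adjusted p between 0.0531 and 0.220. In the 46 wells that were not glia-rich, the median of Hsd17b7 was 156 CPM in naive mice, 238 at SNI 1d, 580 at SNI 3d, 74.2 at SCI 1d and 124 at SCI 3d.

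Hsd17b7 at SNI 3d also lay above every mouse of 2 other groups, without passing the test. SNI 1d mice measured 137, 196, 214 and 215 CPM, and the difference of SNI 3d from SNI 1d was 1.42 on the log2 scale (SE 0.53, edgeR adjusted p = 0.474), and 1.41 without glia-rich wells (edgeR adjusted p = 0.604). Non-overlap in that direction held for 1.09% of all genes in that comparison and for 1 of 9 members, and 0.00425% of all genes and 0 members were called. SCI 3d mice measured 74.6, 175, 59.7 and 239 CPM, and the difference of SNI 3d from SCI 3d was 1.91 (SE 0.54, edgeR adjusted p = 0.584), and 1.78 without glia-rich wells (edgeR adjusted p = 0.532). Non-overlap held there for 1.07% of all genes and 1 of 9 members, with 0% of all genes and 0 members called, 1990 genes at an unadjusted p under 0.05, and 374 genes called higher and 601 lower by DESeq2.

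Lss had the lowest mean RPKM of the members in each of the 5 groups of sorted cells. Naive mice measured 1.98 to 16.9 CPM (median 9.89, n = 6), SNI 1d mice 21.8, 14.1, 23.0 and 34.7 CPM and SNI 3d mice 24.2, 22.8, 51.8 and 70.5 CPM. SCI 1d mice measured 17.4, 5.23, 48.3 and 16.8 CPM and SCI 3d mice 13.5 to 159 CPM with a median of 31.3. The SNI 3d mice did not overlap with the naive mice (log2 fold change 2.16, SE 0.75, edgeR adjusted p = 0.245), and the SCI 3d mice did (2.60, SE 0.75, edgeR adjusted p = 0.407). Without glia-rich wells the SNI 3d difference of Lss was 1.78 (edgeR adjusted p = 0.0753). The SCI 3d difference was smaller without these wells, as given below. In SCI 3d replicate 4, the highest mouse, a glia-rich well held 7111 of the 7942 Lss reads. In SCI 1d replicate 3, a glia-rich well held 1591 of 2296.

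At SNI 1d no member was called against naive, beside 0.685% of all genes. The fitted changes ran from -1.01 (Dhcr7) to 1.28 (Lss) on the log2 scale, with 5 of 9 below 0 and a median of -0.04. Msmo1 came nearest (log2 fold change -0.73, SE 0.30, edgeR adjusted p = 0.257), with 353, 352, 522 and 292 CPM at SNI 1d against 276 to 2266 CPM in naive mice. Without glia-rich wells no member was called either, with fitted changes from -1.17 (Dhcr7) to 1.07 (Lss).

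At SCI 1d no member was called against naive, beside 0.017% of all genes. The fitted change was below 0 for 8 of 9 members, Lss being the exception, with a median of -0.74, and for 9714 of all 23507 genes, with a median of 0.18. Sqle measured 59.3, 46.4, 73.4 and 89.4 CPM at SCI 1d against 73.5 at the lowest, 153 at the median and 294 at the highest in naive mice. Its log2 fold change was -1.24 (SE 0.46, edgeR adjusted p = 0.284), and 3 of 4 SCI mice lay below all naive mice. Msmo1 measured 234, 129.7, 392.4 and 297 CPM at SCI 1d against 276 to 2266 CPM in naive mice, with a log2 fold change of -1.29 (SE 0.30, edgeR adjusted p = 0.175). Without glia-rich wells Msmo1 was called lower (-1.16, edgeR adjusted p = 0.0462) and Sqle was not (-1.06, edgeR adjusted p = 0.119). Again 8 of 9 fitted changes were below 0, while the median of all genes was 0.38. Calls over all genes in that fit are not given here. At SNI 3d against naive, more genes were called without these wells than with them.

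The sets agreed in sign on this difference for Sqle (log2 ratio -1.57 in FACS, -1.16 in FACS2018), Msmo1 (-1.18, -2.33), Fdft1 (-1.10, -0.91), Cyp51 (-0.90, -0.89), Nsdhl (-1.09, -0.93), Sc5d (-0.95, -0.55) and Hsd17b7 (-2.02, -0.11), and not for Dhcr7 (-1.87, 0.54) or Lss (-0.04, 2.33).

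Sqle separated the 2 injuries at 1 day without passing the test. SNI 1d mice measured 280.0, 116, 230.2 and 129.8 CPM, each above the highest SCI 1d mouse, at a difference of 1.50 on the log2 scale (SE 0.50, edgeR adjusted p = 0.461). Non-overlap in this direction held for 1 of 9 members and for 2.6% of all genes. None of the 9 members was called in this comparison, beside 0% of all genes, 2408 genes at an unadjusted p under 0.05, and 660 genes called higher and 456 lower by DESeq2. The fitted difference was above 0 for 9 of 9 members, from 0.10 (Lss) to 1.50 (Sqle) with a median of 0.56, and the median of all genes was 0.01. Within the sets, the log2 ratio of Sqle was 1.89 in FACS and 1.14 in FACS2018. Without glia-rich wells the difference of Sqle was 1.38 (edgeR adjusted p = 0.0479), with 161 genes called higher and 40 lower of 22620, and 8 of 9 fitted differences were above 0, Dhcr7 standing at -0.22.

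At SCI 3d no member was called against naive, beside 0% of all genes, 2208 genes at an unadjusted p under 0.05, and 712 genes called higher and 509 lower by DESeq2. The fitted changes had a median of -0.05, with 6 of 9 below 0, and all but Lss lay between -0.33 (Sqle) and 0.35 (Sc5d). Sqle measured 129.2, 139, 19.7 and 231 CPM, the low value being replicate 3, whose wells were all glia-rich. Without glia-rich wells the fitted changes ran from -0.41 (Msmo1) to 0.71 (Lss), again with no member called. Against SCI 1d, 9 of 9 members had a fitted difference above 0 at SCI 3d, from 0.47 (Fdft1) to 1.42 (Lss) with a median of 0.90, and the median of all genes was -0.15. None was called there, beside 0% of all genes, 2508 genes at an unadjusted p under 0.05, and 490 genes called higher and 613 lower by DESeq2. Without glia-rich wells these differences ran from 0.27 (Lss) to 1.28 (Hsd17b7), with none called. These comparisons share the SCI 1d or the naive mice with those above and are not separate samples of the same difference.

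**Figure D4:**
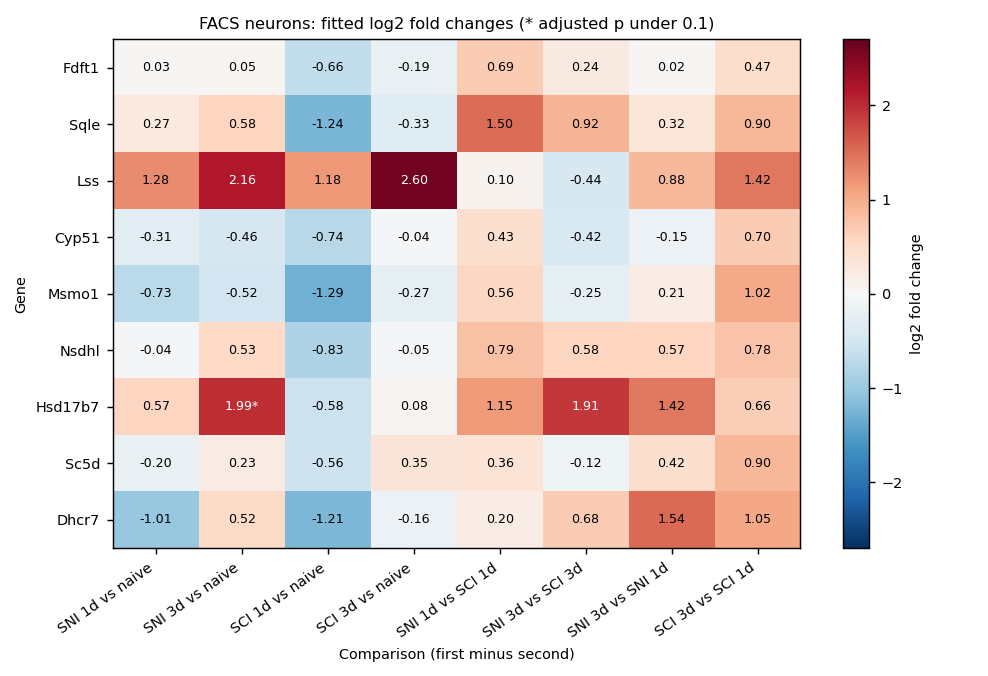
Heat map of the fitted log2 fold change of the 9 members in the 8 comparisons of sorted cells, with the value in each cell and an asterisk at an adjusted p under 0.1. The only asterisk is Hsd17b7 at SNI 3d against naive (1.99), and Lss is the only member above 0 at SCI 1d against naive (1.18).

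The remaining members of the sorted cells are given by their ranges. Fdft1 ran from 260 to 1016 CPM in naive mice and from 156 to 679 CPM in injured mice, and its fitted changes against naive lay between -0.66 at SCI 1d and 0.05 at SNI 3d. Cyp51 ran from 81.3 to 179 CPM in naive mice and from 38.9 to 290 CPM in injured mice. Its fitted changes against naive were all below 0, from -0.74 at SCI 1d to -0.04 at SCI 3d.

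Nsdhl ran from 114 to 326 CPM in naive mice, and at SCI 1d it measured 93.9, 90.8, 104.5 and 182 CPM (log2 fold change -0.83, SE 0.32, edgeR adjusted p = 0.289). The first 3 of these mice lay below every naive mouse. Sc5d ran from 180 to 535 CPM in naive mice and from 131 to 811 CPM in injured mice, with fitted changes against naive between -0.56 at SCI 1d and 0.35 at SCI 3d. Dhcr7 ran from 18.2 to 153 CPM in naive mice, and its fitted changes against naive lay between -1.21 at SCI 1d and 0.52 at SNI 3d, where replicate 3 alone measured 347 CPM.

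No gene of the mevalonate, other post-squalene, farnesyl diphosphate branch or sterol sensing lists was called in any of the 8 comparisons of sorted cells. At SCI 1d, 7 of 7 mevalonate genes had a fitted change below 0 against naive (median -0.79), beside 41.3% of all genes. The count was 7 of 7 at SCI 3d (median -0.42), beside 48.7% of all genes, and 5 of 7 at SNI 1d (median -0.55), beside 42.1%. At SNI 3d it was 2 of 7, beside 50.9%. At SNI 3d the mevalonate median was 0.12, while that of the 9 post-squalene members was 0.52, and the difference between these lists was not tested.

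Wells of 1 mouse often differed as much as mice did. To compare a mouse's 3 wells, 1 CPM was added to each, which shrinks the ratios of low values. The highest and lowest wells then lay within 2-fold in 12 of 22 mice for Sc5d and in 11 for Msmo1, and in 2 of 22 for Lss. They lay over 10-fold apart in 12 mice for Lss and in 11 each for Hsd17b7 and Dhcr7. The median ratio of a mouse's highest to its lowest well, taken in the same way, was 1.91 for Sc5d and 1.95 for Msmo1. It was 10.3 for both Lss and Dhcr7 and 18.4 for Hsd17b7.

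Pooled over all groups, the members split by how they stood in the glia-rich wells. Medians were 9.0 CPM in glia-rich and 156 CPM in other wells for Hsd17b7, 18.9 and 152 for Sqle, 2.64 and 54.0 for Dhcr7, and for Lss 1.37 CPM in glia-rich wells, below the first quartile of the others, 11.6 CPM. Fdft1 (169.8 and 410.2) and Nsdhl (119 and 217) were lower to a lesser degree. Msmo1 (628 and 387), Cyp51 (124 and 90.3) and Sc5d (308 and 260.2) had higher medians in the glia-rich wells. Only Msmo1 (higher) and Fdft1, Sqle and Hsd17b7 (lower) kept this direction of the medians in every group. In glia-rich wells Sc5d was lower in naive mice (239.8 against 309.5) and at SNI 1d, and Cyp51 at SNI 3d (10.8 against 94.3) and SCI 3d. Dhcr7 was higher in them at SNI 1d and SNI 3d (212.3 against 68.95). Nsdhl was higher in them at SNI 3d (541.3 against 250.7) and SCI 3d, and Lss at SCI 3d. Under 1 CPM stood Lss in 10 and Dhcr7 in 9 of the 20 glia-rich wells, against 3 and 0 of the 46 others. Genes detected per well had a median of 11198 in glia-rich and 16268 in other wells, which moves with these levels. Wells are not replicates of a condition and were classed from their own reads, so these values are a description.

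**Figure D5:**
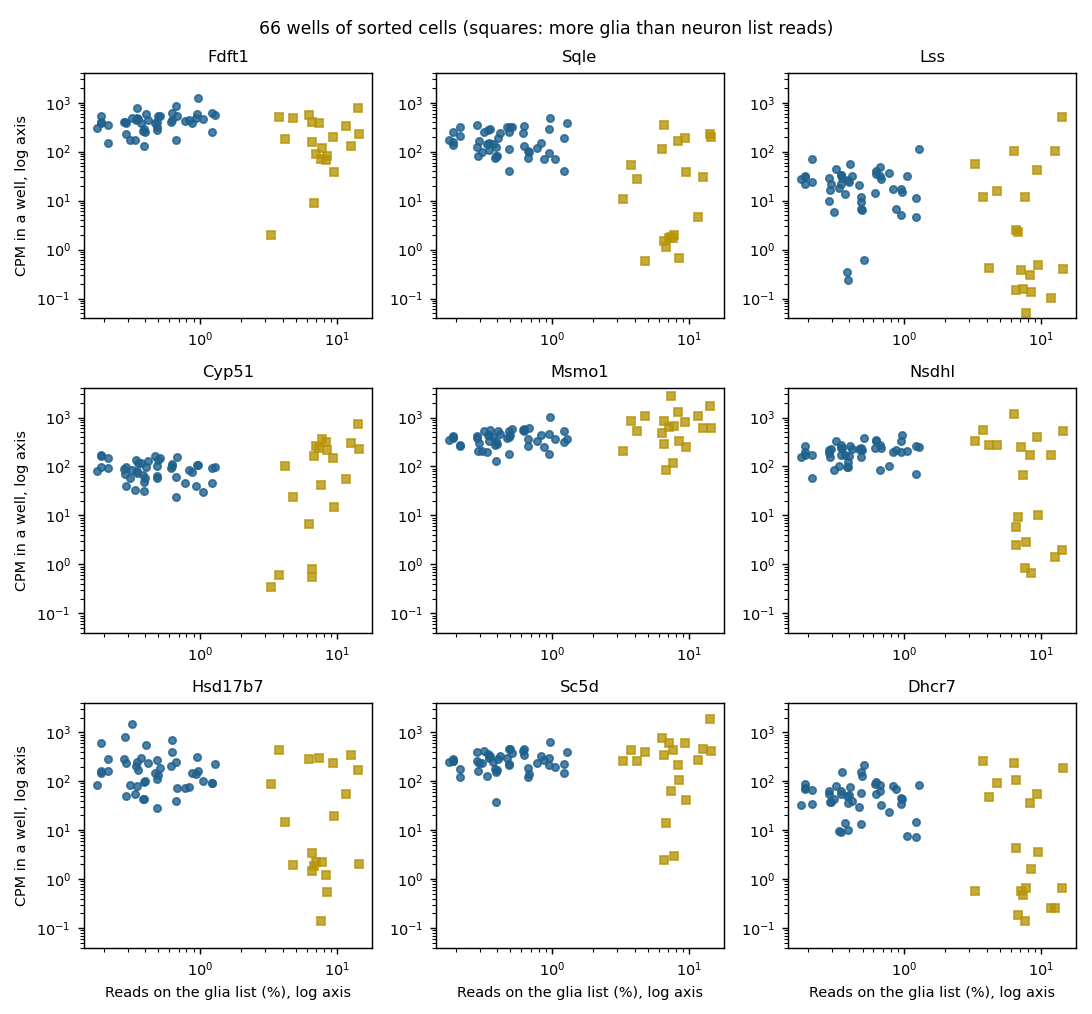
CPM of each member in each of the 66 wells against the percent of the well's reads on the glial list, both axes log, squares for the 20 glia-rich wells and circles for the others. The 1 well with no Lss read is drawn at 0.05 CPM. The lowest square lies below the lowest circle in each of the 9 panels, by the smallest ratio for Msmo1 (86.5 against 130.2 CPM).

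Most members rose and fell together over the whole DRG libraries. Over the 8 libraries, 33 of 36 pairs of members had a positive Pearson correlation of log2 CPM, with a median of 0.84, and the pairs with Lss had a median of 0.15. Over the 66 wells 32 of 36 pairs were positive, with a median of 0.32. These points share library, depth and, in whole DRG, the division into 2 groups.

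The genes outside the set whose profile was most like the mean of the members' standardised log2 CPM over the 8 whole DRG libraries were Oxr1 (r = 0.989), Mvd (0.986), Snx14 (0.979), Ppif (0.979) and Lhfpl2 (0.976), of 17584 ranked. Of the mevalonate arm, Acat2 also stood at rank 10, Hmgcs1 at 16 and Mvk at 22. Over the 66 wells they were Dmac1 (0.744), Tkt (0.738), Gps1 (0.731), Ppp2r1a (0.729) and Acat2 (0.713), of 15395 ranked, with Fdps at rank 10 and Mvd at 47.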

How the data were processed

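RNA was sequenced from whole L4 DRG of 8 mice (1 library each) and from YFP-positive L4 DRG cells sorted from 22 mice (3 wells of 100 cells each). Reads were trimmed with Cutadapt and PRINSEQ, aligned to GRCm38 (mm10) with STAR 2.5.3a and counted per gene with HTSeq 0.6.1 by the authors, the versions being those of the submitters' processing notes, and the deposited values are counts, whole reads per gene without normalization. The last 5 lines of each file name no gene and were left out. In whole DRG, reads on no feature and ambiguous reads, 2 of these lines, came to 10.3 to 12.8% and 3.60 to 3.98% of reads. The authors' own tables of fold changes and p-values, made with DESeq2, were not used, nor were 123 columns of values per sample in 7 tables, whose names match no sample. The paper set aside some outlier samples that the labels do not name, so all 22 sorted mice were kept.

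Groups came from the sample titles. Of 53379 gene identifiers, 53274 were named from GENCODE vM21 on GRCm38. A gene was tested in whole DRG if its counts averaged 10 or more, and in sorted cells if the summed 3 wells of any mouse held 20 or more reads. Each comparison was edgeR's quasi-likelihood F-test after TMM scaling, called at a Benjamini-Hochberg adjusted p under 0.1, with 2 RUVr factors (written anew, from centred deviance residuals) over all 22 sorted mice. The fits were tested on simulated data, drawn around a single mean share per gene with the spread of the data. These held no sets, glia-rich wells or unwanted factors, so how well the RUVr factors remove such effects was not tested. The whole DRG fit recovered 188 of 200 genes changed by 1 on the log2 scale, with 21 false calls. For SNI 3d against naive, the fit with 2 factors recovered 42 of 200 genes changed by 3, with 3 false calls. It recovered 129 of 200 changed by 6, with 6 false calls. A gene not called in sorted cells may therefore still have changed. Over all genes, log2 fold changes had a median SE, taken from the F statistic where that was not near 0, of 0.123 in whole DRG and 1.04 to 1.22 in sorted cells.

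The members, the gene lists and the tests were chosen with earlier results of these data known. Of other lists, called genes were named, at most 5 per comparison, and of genes alike in profile the first 5. Some genes of the pathway lists are not reported here, and counts and medians of those lists leave them out. Alternatives were other or no count filters, DESeq2 (with the same factors), edgeR with DESeq2's size factors, a threshold of 0.05, a replicate block, other or no factors, marker levels as covariates, wells that were not glia-rich, naive mice of the same day and leaving out each mouse. RPKM used the union of exons. Python 3.11.15 (pandas 2.3.3, numpy 2.4.6, matplotlib 3.10.9, scipy 1.17.1) and R 4.3.3 (DESeq2 1.42.0, limma 3.58.1, edgeR 4.0.16) were used.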

Additional observations from a re-analysis of the deposited data

Results flagged for a closer look

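In 63 sets of 1 gene in 1 group, 8 held a mouse that lay far from the rest by Dixon's criterion, which chance meets in about 1 of 20 sets. In whole DRG all 4 of these were uninjured replicate 1, at 169.9 CPM for Fdft1 (next mouse 224.0), 198.6 for Cyp51 (next 265.1), 240.8 for Msmo1 (next 340.0) and 227.2 for Sc5d (next 261.6). The depth of that library, 21959030 reads on genes, was the lowest of the 8, and the part of depth in its values was not tested.

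In sorted cells, naive replicate 5 held 1016 CPM of Fdft1 (next mouse 436.5) and SCI 1d replicate 4 held 182.2 CPM of Nsdhl (next 104.5). SNI 3d replicate 3 held 1100 CPM of Nsdhl (next 274) and 346.7 CPM of Dhcr7 (next 77.8), and all 3 of its wells were glia-rich. Naive replicate 5 had 2 glia-rich wells and SCI 1d replicate 4 had 0.

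For 9 members at 2 days, 18 combinations, there was none in which every SNI mouse lay on one side of the naive mean and every SCI mouse on the other.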

How the results depend on the processing

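The number of members called turned on single mice and on the model. In whole DRG, 3 members were called, 3 also with DESeq2's size factors or another filter and 4 with DESeq2 or no filter, but 1 at a threshold of 0.05, 0 with the red blood cell level and 1 with the glial level as covariate. Leaving out 1 mouse gave 0 to 6 members there, and 0 to 1 for SNI 3d against naive. The replicate numbers share only a number: correlations of deviations between same-numbered whole DRG mice ran from -0.16 to 0.26, and those within sets of sorted mice had a median of 0.11. With a replicate block, 0 members were called in whole DRG and 0 at SNI 3d, and it changed no other count. For SNI 3d against naive, where 1 member was called, 0 were called at a threshold of 0.05, with DESeq2's size factors, no filter, no factor, 1 factor, factors not centred, the set or the glial share in place of factors, or naive mice of the same day, and 2 with DESeq2 or without the glia-rich wells. DESeq2 called 1 member at SCI 1d (Msmo1), 1 at SCI 3d (Lss), 1 for SNI 1d against SCI 1d (Sqle) and 1 for SNI 3d against SCI 3d (Hsd17b7). Without the glia-rich wells, 1 was called at SCI 1d (Msmo1, log2 fold change -1.16, edgeR adjusted p = 0.0462) and 1 for SNI 1d against SCI 1d. Fits without these wells and with no factor, or with the set, were chosen after seeing the data, and gave 0 and 1 at SNI 3d. The cause of these changes was not tested. For most alternatives the calls over all genes are not given beside these counts, so the counts cannot be read as particular to the members. No call changed sign under any alternative.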

Other observations

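In glia-rich wells Dhcr7 stood at a median of 212 CPM at SNI 3d (4 wells, from 2 mice) and 0.524 CPM in naive mice (6 wells), while Hsd17b7 stood at 150.1 and 2.06 CPM and Cyp51 at 10.8 and 200.4 CPM. With 3 of the 4 SNI 3d wells from replicate 3, these are values of few wells, and no test was made. For Hsd17b7 the 4 wells measured 443, 281, 19.2 and 2.02 CPM, and the first 2, both of replicate 3, held 1.69 and 1.46% of reads on neuronal genes, against a median of 0.0445% over the glia-rich wells.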
